A study of Mus musculus with 24 samples.

Results

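The 41 genes described here encode the machinery that copies DNA and the proteins that carry a cell into S phase. They were listed by symbol for their known function, with earlier results of these data known, and no measured value entered the rule. Each was found under 1 Ensembl identifier among the 54146 genes of the count tables. By role they fall into origin licensing (Orc1, Orc6, Cdc6 and Cdt1), the MCM helicase (Mcm2, Mcm3, Mcm4, Mcm5, Mcm6 and Mcm7), helicase activation (Mcm10, Cdc45, Gins1, Gins2, Gins3 and Gins4), primase and polymerases (Pola1, Pola2, Prim1, Pold1, Pold3, Pole and Pole2), the sliding clamp with its loader and the single-strand binding protein (Pcna, Rfc2, Rfc3, Rfc4, Rfc5 and Rpa2), Okazaki fragment processing (Fen1 and Lig1), nucleotide supply (Rrm1, Rrm2 and Tyms), chromatin and histone mRNA (Chaf1a, Chaf1b, Uhrf1 and Slbp) and G1/S entry (Ccne1, Ccne2 and E2f1).

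In G1, the origin recognition complex, Cdc6 and Cdt1 load the ring of MCM proteins onto origins of replication. At S-phase entry, cyclin-dependent kinases and the E2F transcription factors start the programme, Cdc45 and the GINS complex turn the MCM ring into a moving helicase, and the polymerases copy both strands behind it with the clamp PCNA. In the small intestine these genes are transcribed mainly in the crypt, where stem cells and transit-amplifying cells divide, while the differentiated cells of the villus have left the cycle. CDK8 and its paralogue CDK19 are alternative kinases of the Mediator complex, which links transcription factors to RNA polymerase II, and Senexin B is an inhibitor of both.

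RNA of mouse small intestinal organoids, epithelial structures grown from crypts in culture, was sequenced in 2 experiments of 12 libraries, with 3 libraries in each of 8 groups. The genotype experiment held WT organoids, Cdk8-/- organoids (Cdk8 lox/lox; Villin-CreERT2, in which tamoxifen induces deletion in villin-expressing epithelium), Cdk19-/- organoids (a lentiviral CRISPR guide to the first exon, followed by picking of single organoids, so that a line can derive from 1 clone) and Cdk8-/-/Cdk19-/- organoids, called double knockout below. The Senexin B experiment held WT organoids given the solvent DMSO or Senexin B for 16 h or for 24 h. The labels give 1 protocol text for all libraries, 4-hydroxytamoxifen at 600 nM for 7 days, and do not say whether the organoids of the Senexin B experiment received it. The labels name biological triplicates without saying whether these were separate animals, cultures or clones, so the p-values measure the spread between these samples.

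The tables held 14636861 to 15473180 counted reads per genotype library and 27075937 to 28405118 per Senexin B library. Both experiments were normalised separately, and a normalised count below is the count scaled to the mean effective library size of its own experiment, so levels are not compared between experiments. The genotype labels also name the cell type 4T1, a mouse mammary carcinoma line, but the epithelial markers of the intestine were abundant in all 24 libraries (Vil1 at 11558 to 24447 counts, Lgals4 at 29131 to 85045) and of 6 mammary markers none exceeded 23 counts. Of 8 markers of immune, stromal, endothelial and muscle cells, Pecam1 was highest at 4 to 52 counts. Cdk19 had 711, 749 and 726 normalised counts in WT, 729, 420.1 and 422 in the libraries labelled Cdk19-/- and 403, 356 and 773 in the double knockout ones, so replicate 1 of the former and replicate 3 of the latter were at the WT level. Counts over the whole of Cdk8 were not lower in Cdk8-/- (685, 857 and 634 against 635, 646 and 534 in WT), and such sums do not show whether an exon was removed. Cdk8-/- replicate 3 stood apart from its group in the 41 genes, and the results against or for Cdk8-/- are given with and without it.

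The promoters of these genes are known targets of E2F, whose sites are commonly written TTTCCCGC, TTTCGCGC, TTTGCCGC or TTTGGCGC. RefSeq promoter windows of 300 bases (250 before and 50 from the start of transcription, GRCm38.p6) were given for 34 of the 41 genes. A search for these 4 words on both strands, overlaps allowed, found at least 1 in 15 of the 34 genes and in 704 of the 27025 genes with a window, or in 38.5% of the 39 windows of the set and in 2.26% of all 32851 windows. The word CCAAT, the core of the NF-Y site, was found on either strand in 20 of the 34 genes, 58.8%, and in 41.1% of all genes. These matches are letters in a window and not measured binding.

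The 160 bases before the start are shown for 2 licensing factors and 2 helicase subunits that hold an E2F word there, since they act at the same step and fell together in the double knockout. They were Orc1 at chr4:108579294-108579453 on the plus strand, Cdc6 at chr11:98907991-98908150 on the plus strand, Mcm5 at chr8:75109349-75109508 on the plus strand and Mcm6 at chr1:128359706-128359865 on the minus strand. Each is printed 5′ to 3′ along the gene, with the E2F words in capitals. The start is that of the RefSeq windows. The GENCODE annotation starts Cdc6 at chr11:98907801 and Orc1 at chr4:108579423, so the E2F words shown for these genes lie inside the annotated genes. In Mcm5, and at the upstream site of Mcm6, 2 words on opposite strands overlap and read as a single run.
Orc1: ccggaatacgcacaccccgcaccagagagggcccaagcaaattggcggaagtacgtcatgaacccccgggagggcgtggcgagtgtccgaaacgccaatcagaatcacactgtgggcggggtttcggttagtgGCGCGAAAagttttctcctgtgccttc
Cdc6: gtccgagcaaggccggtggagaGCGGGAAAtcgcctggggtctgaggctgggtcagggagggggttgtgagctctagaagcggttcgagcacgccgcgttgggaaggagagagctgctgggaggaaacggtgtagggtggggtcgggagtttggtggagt
Mcm5: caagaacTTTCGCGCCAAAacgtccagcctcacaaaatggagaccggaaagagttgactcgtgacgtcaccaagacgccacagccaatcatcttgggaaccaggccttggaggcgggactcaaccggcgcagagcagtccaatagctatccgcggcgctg
Mcm6: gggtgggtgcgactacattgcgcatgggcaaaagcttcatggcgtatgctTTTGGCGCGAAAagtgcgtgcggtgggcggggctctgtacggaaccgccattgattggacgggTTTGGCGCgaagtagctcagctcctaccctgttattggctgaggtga

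Levels can be compared between genes per kilobase of exon, here as CPM (counts scaled to a common library size) per kilobase with the SD over 3 libraries. In WT the highest were Mcm6 at 60.8 ± 2.32 and Pcna at 54.7 ± 3.31, and the lowest was Gins3 at 2.65 ± 0.323. In DMSO at 24 h Pcna was highest at 100.2 ± 7.08 and Ccne2 lowest at 1.99 ± 0.384. Strand was not kept in the genotype libraries, and reads from a gene on the opposite strand count for both. In the stranded Senexin B libraries 51.0% of the reads assigned to Gins2 over both strands lay on the gene's own strand and 67.4% of those of Ccne2, while the other 39 genes had 79.4 to 96.6%. Exons of Gse1 overlap 67.3% of the Gins2 exons, those of Ubxn6 52.5% of Chaf1a, those of Gm10143 78.8% of Fen1 and those of Ints8 17.4% of Ccne2. The genotype values of these genes are uncertain for that reason, most of all for Gins2 and Ccne2. Chaf1a and Fen1 had 88.7% and 93% of their stranded reads on their own strand.

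Most of the set was lower in the double knockout than in WT. There, 32 of the 41 genes fell against WT and none rose, with a median log2 fold change of -0.50 against -0.01 over the 15602 genes tested. Of all genes tested, 7.90% were called lower and 9.41% higher (edgeR quasi-likelihood test, adjusted p below 0.05). All 41 fold changes were below 0, from -0.84 for Cdt1 to -0.18 for Rrm2, and in 38 genes every double knockout library lay below every WT library, which held for 20.1% of all genes. The 41 genes together took 3318 to 3494 CPM in WT and 2229 to 2568 in the double knockout. The 9 genes that did not pass the test were Mcm10, Gins3, Pola2, Pcna, Rfc5, Fen1, Rrm2, Chaf1b and Ccne1. The count of calls was 21 when WT replicate 2 was left out (4.03% of all genes were lower), and 25 when double knockout replicate 3 and Cdk19-/- replicate 1 were (8.69%), the libraries with Cdk19 at the WT level. In 15 settings of the processing and of the libraries used, 17 genes were called each time, as were 3.49% of the 12670 genes tested in all 15.

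**Figure D1:**
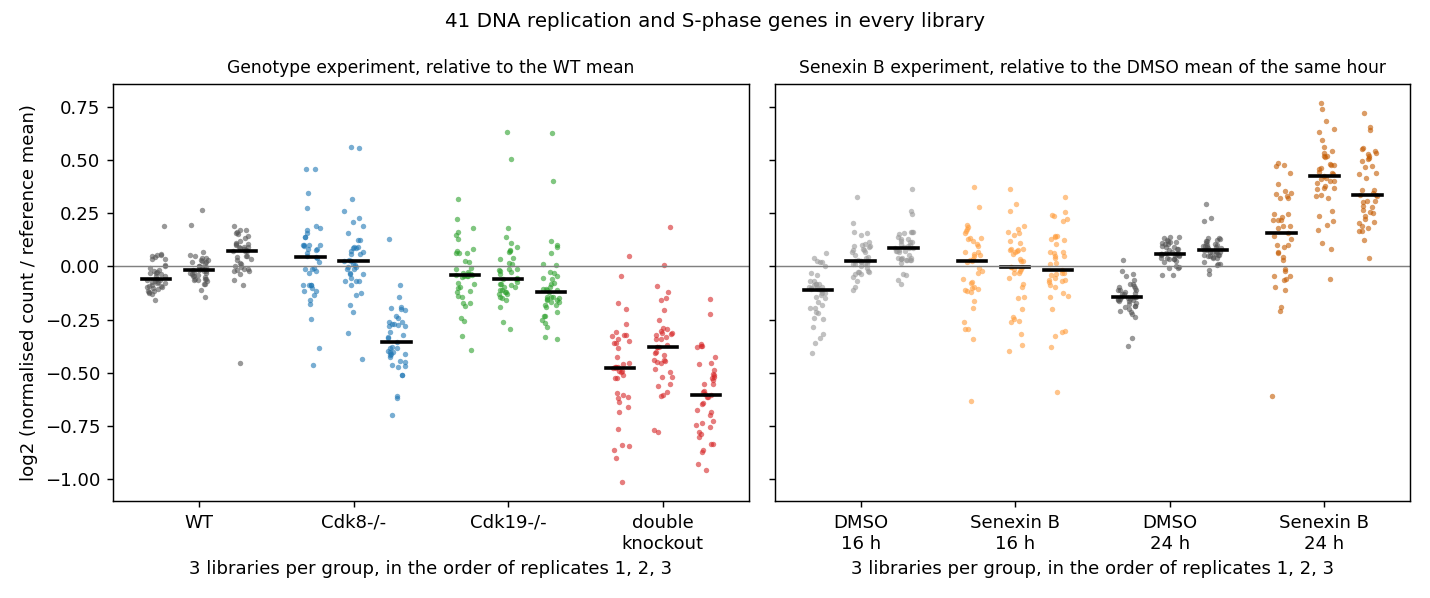
Each point is 1 of the 41 genes in 1 library, as the log2 ratio of its normalised count to the mean of WT (left) or of DMSO at the same hour (right), and black bars are library medians. The medians of the double knockout libraries lie at -0.48, -0.38 and -0.60, Cdk8-/- replicate 3 at -0.35, and the Senexin B libraries of 24 h at 0.16, 0.42 and 0.33.

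The decrease in the double knockout went with other measured differences between the same libraries. Marker calls there stand against 9.41% of all genes called higher and 7.90% called lower. Of 10 enterocyte markers 5 rose and none fell, and their sum was 18620 to 23670 CPM in the double knockout libraries against 13370 to 13880 in WT. Of 7 stem cell markers 5 fell and none rose, with sums of 2861 to 3014 against 3645 to 4153. Of 7 Paneth cell markers 6 rose and none fell, with sums of 2418 to 5170 against 1270 to 1704. Of 7 goblet cell markers 2 rose and none fell (2724 to 4638 against 2351 to 3177), of 5 tuft cell markers tested 2 fell and none rose (18.7 to 50.6 against 48.0 to 78.3), and of 8 enteroendocrine markers none was called (818 to 1737 against 1027 to 1801). The 8 markers of cells other than epithelium summed to 2.00 to 6.06 CPM against 1.43 to 2.05, and of the 3 that could be tested the smooth muscle actin Acta2, at 0 to 24 raw counts over all 24 libraries, was higher. The 6 mammary markers summed to 0.323 to 1.84 CPM against 0 to 0.273, and the 1 that could be tested, the casein Csn3, was higher. Reads that mapped to several places made up 19.5 to 20.2% of the double knockout libraries, 19.7% of Cdk8-/- replicate 3 and 21.8 to 22.9% of the other 8 genotype libraries. In Cdk8-/- 7 of 7 Paneth and 2 of 7 goblet cell markers rose against WT and none fell, where 2.79% of all genes were called higher. Paneth sums there were 5211, 3989 and 4042 CPM, and goblet sums 3688, 3503 and 4203. The set's mean log2 ratio to WT in these libraries was 0.03, 0.04 and -0.35. Their enterocyte sums were 14820 to 15710 and their stem cell sums 3506 to 4821. The part of the marker and read differences in the double knockout result was not tested. In bulk RNA fewer cycling cells and less of each transcript per cell cannot be told apart.

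No gene of the set passed the test in either single knockout. For Cdk8-/- the median was -0.08 with 32 genes below 0, no gene was called (3 lower at an unadjusted p under 0.05, as were 9.86% of all genes, and 0 by DESeq2, which called 3.79% of all genes lower and 4.67% higher), and 2.36% of all genes were called lower and 2.79% higher. This average hid a split between libraries: the mean log2 ratio to WT was 0.03 and 0.04 in replicates 1 and 2 and -0.35 in replicate 3, where 40 of 41 genes were below the WT mean. Without Cdk8-/- replicate 3 the median was 0.00 with 19 of 41 genes below 0, and no gene was called, against 1.42% of all genes called lower and 1.20% higher. Without Cdk8-/- replicate 1 the median was -0.16 with 37 below 0, and 1 gene was called, Cdt1, at -0.48 (adjusted p = 0.0364), where 1.34% of all genes were called lower. For Cdk19-/- the median was also -0.08, with no gene called (2 higher at an unadjusted p under 0.05, as were 5.08% of all genes, and 0 by DESeq2) and 0% of all genes called (2.01% by DESeq2). Without replicate 1, 1.77% of all genes were called higher and 1.50% lower, and without both libraries with Cdk19 at the WT level 2.17% and 2.04%, with 1 of the 41 genes, Pola2, called higher in each case. Pola2, a subunit of the primase complex, had 1258, 1866 and 1865 normalised counts in Cdk19-/- and 1189, 1159 and 1274 in WT. Its replicates 2 and 3, those with reduced Cdk19 counts, lay above all WT libraries, and replicate 1 lay within them. The log2 fold change was 0.46 ± 0.15 (SE, n = 3 against 3; edgeR adjusted p = 0.264), and 0.64 (adjusted p = 0.0186) without replicate 1. Fen1, the flap endonuclease of Okazaki fragments, had 1212, 1635 and 1526 counts in Cdk19-/- and 1155, 1171 and 1137 in WT, and did not pass the test at 0.34 ± 0.15 (SE, n = 3 against 3; edgeR adjusted p = 0.449). Pola2 and Fen1 lie on chromosome 19, as no other of the 41 genes does. In Cdk19-/- replicates 2 and 3, stem cell markers summed to 7065 and 6132 CPM (3645 to 4153 in WT). Enterocyte markers summed to 9635 and 10300 (13370 to 13880 in WT). Goblet cell sums were also below WT and enteroendocrine sums above, while Paneth and tuft cell sums were not apart. The part of these differences in the values of both genes was not tested.

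Set directly against Cdk8-/-, all 41 genes were below 0 in the double knockout with a median of -0.43, but none was called. By the same test 0.0256% of all genes were called lower. At an unadjusted p under 0.05 it was 34 of the 41 and 8.56% of all genes, and by DESeq2 18 of the 41 and 1.24% of all genes. In 23 genes every double knockout library lay below every Cdk8-/- library, against 8.04% of all genes. This comparison turned on Cdk8-/- replicate 3. Without it 25 of the 41 genes and 3.22% of all genes were called lower, the median was -0.57, and the groups were apart in 39 genes, against 20.9% of all genes. The departure of the double knockout from the sum of the single effects had a median of -0.38, with 40 genes below 0 and none called, where 0.0192% of all genes were called lower. At an unadjusted p under 0.05 it was 17 of the 41 and 6.52% of all genes, and by DESeq2 3 of the 41 and 1.08% of all genes. Without Cdk8-/- replicate 3, 6 genes were called lower in it (0.995% of all genes), without Cdk19-/- replicate 1, 2 genes (1.14%), and without both libraries with Cdk19 at the WT level, 1 gene (1.80%). The marker sums of the double knockout and Cdk8-/- libraries were apart for enterocytes (18620 to 23670 against 14820 to 15710 CPM), stem cells (2861 to 3014 against 3506 to 4821) and tuft cells (18.7 to 50.6 against 66.6 to 91.8), with no marker called, and their part in the result was not tested. These comparisons share libraries with each other and with those against WT.

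Much of the set was higher after 24 h of Senexin B. At that time 25 of the 41 genes were higher than in DMSO and none was lower, with a median log2 fold change of 0.31 against 0.00 over the 15467 genes tested. Of all genes, 14.8% were called higher and 12.7% lower. The fold changes ran from -0.08 for Ccne2 to 0.63 for Gins1, and in 24 genes every Senexin B library lay above every DMSO library, as in 23.5% of all genes. The 41 genes took 3354 to 3951 CPM with Senexin B and 2857 to 3281 with DMSO. The count was 15 without Senexin B replicate 2 (9.64% of all genes were higher) and 31 without Senexin B replicate 1 (13.2%). With the replicate number as a block it was 30 (19.3%), with Orc1, Orc6, Mcm2, Pole and Rrm2 added to the 25. In each of 14 settings 15 genes were called, as were 8.83% of the 13315 genes tested in all 14. Replicate 1 was the lowest library in both groups, at a mean log2 ratio to DMSO of 0.14 with Senexin B (0.41 and 0.37 in the others) and -0.14 with DMSO. Reads that mapped to several places made up 7.86 to 8.12% with Senexin B and 7.25 to 7.37% with DMSO, and the 7 Paneth cell markers, of which 5 fell, summed to 1283 to 1767 and 2937 to 3192 CPM. Of the 7 stem cell markers 1 rose and 1 fell, and of the 10 enterocyte markers 3 rose and 1 fell. Of the 7 goblet cell markers 4 rose and 1 fell, though their sum was lower (2922 to 3331 CPM with Senexin B, 3544 to 4093 with DMSO). Of the 8 enteroendocrine markers 4 rose and 1 fell (319.7 to 433.9 and 343.5 to 372.5), and of 5 tuft cell markers tested 3 rose and none fell (32.6 to 37.3 and 25.0 to 28.6). The part of these differences in the result was not tested.

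At 16 h the median was 0.01, and 1 gene was called, Pold1, while 4.36% of all genes were called higher and 3.39% lower. Pold1, the catalytic subunit of DNA polymerase delta, had 4199, 3975 and 3834 normalised counts with Senexin B and 3331, 3303 and 3110 with DMSO. The groups did not overlap, and the log2 fold change was 0.30 ± 0.06 (SE, n = 3 against 3; edgeR adjusted p = 0.00596). Without DMSO replicate 1 the median was -0.05, and 4 genes were called, Pold1 higher (6.30% of all genes) and Cdc6, Rrm2 and Ccne2 lower (5.27%). Without DMSO replicate 2, Pold1 and Pole were higher (2.86%). With the replicate number as a block, 8 genes were called at 16 h: Cdt1, Mcm10 and Pold1 were higher, and Cdc6, Rrm2, Slbp, Ccne1 and Ccne2 were lower, where 7.49% of all genes were called higher and 7.34% lower. Without the block, 2 of 7 Paneth cell markers fell at 16 h (sums of 1528 to 1984 CPM against 2004 to 2960), 3 of 7 goblet cell markers rose, 3 of 8 enteroendocrine markers rose and 1 fell, 1 of 10 enterocyte markers rose and 2 fell, and 1 of 7 stem cell markers moved in each direction. Reads that mapped to several places made up 8.06 to 8.17% with Senexin B at 16 h and 7.26 to 8.04% with DMSO. The part of these differences in the result was not tested. At 16 h all Senexin B libraries lay above all DMSO libraries in 9 genes and below them in 4, the latter being Rrm2, Slbp, Ccne1 and Ccne2, and over all genes the shares were 12.2% and 12.6%. The effect at 24 h minus that at 16 h was above 0 in 40 genes with a median of 0.34, yet none was called, as in 0% of all genes. At an unadjusted p under 0.05 it was 26 of the 41 and 7.33% of all genes, and by DESeq2 0 of the 41 and 0.187% of all genes were higher. With the block, Rfc4, Fen1 and Rrm2 were called higher in this difference, where 29 of all 15467 genes were.

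The DMSO libraries themselves changed with time. From 16 to 24 h in DMSO, 39 of the 41 genes were below 0 with a median of -0.21, and 6 fell: Ccne1, Rrm2, Pcna, E2f1, Rfc2 and Gins1. Of all genes 6.59% were called lower and 4.52% higher, and in 20 of the 41 genes no library of 24 h reached the lowest of 16 h, as in 15.8% of all genes. No gene was called without DMSO 16 h replicate 3 or without DMSO 24 h replicate 1 (1.59% and 1.93% of all genes were lower), and 13 were without DMSO 16 h replicate 1 (7.60%). With the block 20 fell (11.7%). Enteroendocrine markers moved over the same time, with sums of 343.5 to 372.5 CPM at 24 h against 246.3 to 264.6 and 2 of 8 higher. Of 7 goblet cell markers 1 was higher, of 3 tested markers of cells other than epithelium 1 was higher, and of 7 stem cell and 10 enterocyte markers 1 each was lower. Their part in the result was not tested. In a comparison added after the data were seen, Senexin B at 24 h against Senexin B at 16 h, 39 genes were above 0 with a median of 0.12 and none was called, where 2.06% of all genes were called higher and 2.40% lower. At an unadjusted p under 0.05, 8 of the 41 and 9.25% of all genes were higher, and by DESeq2 1 of the 41 and 2.90% of all genes. With the block 4 genes were called higher in it (4.35% of all genes), and also 4 without Senexin B 24 h replicate 1 (2.20%).

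**Figure D2:**
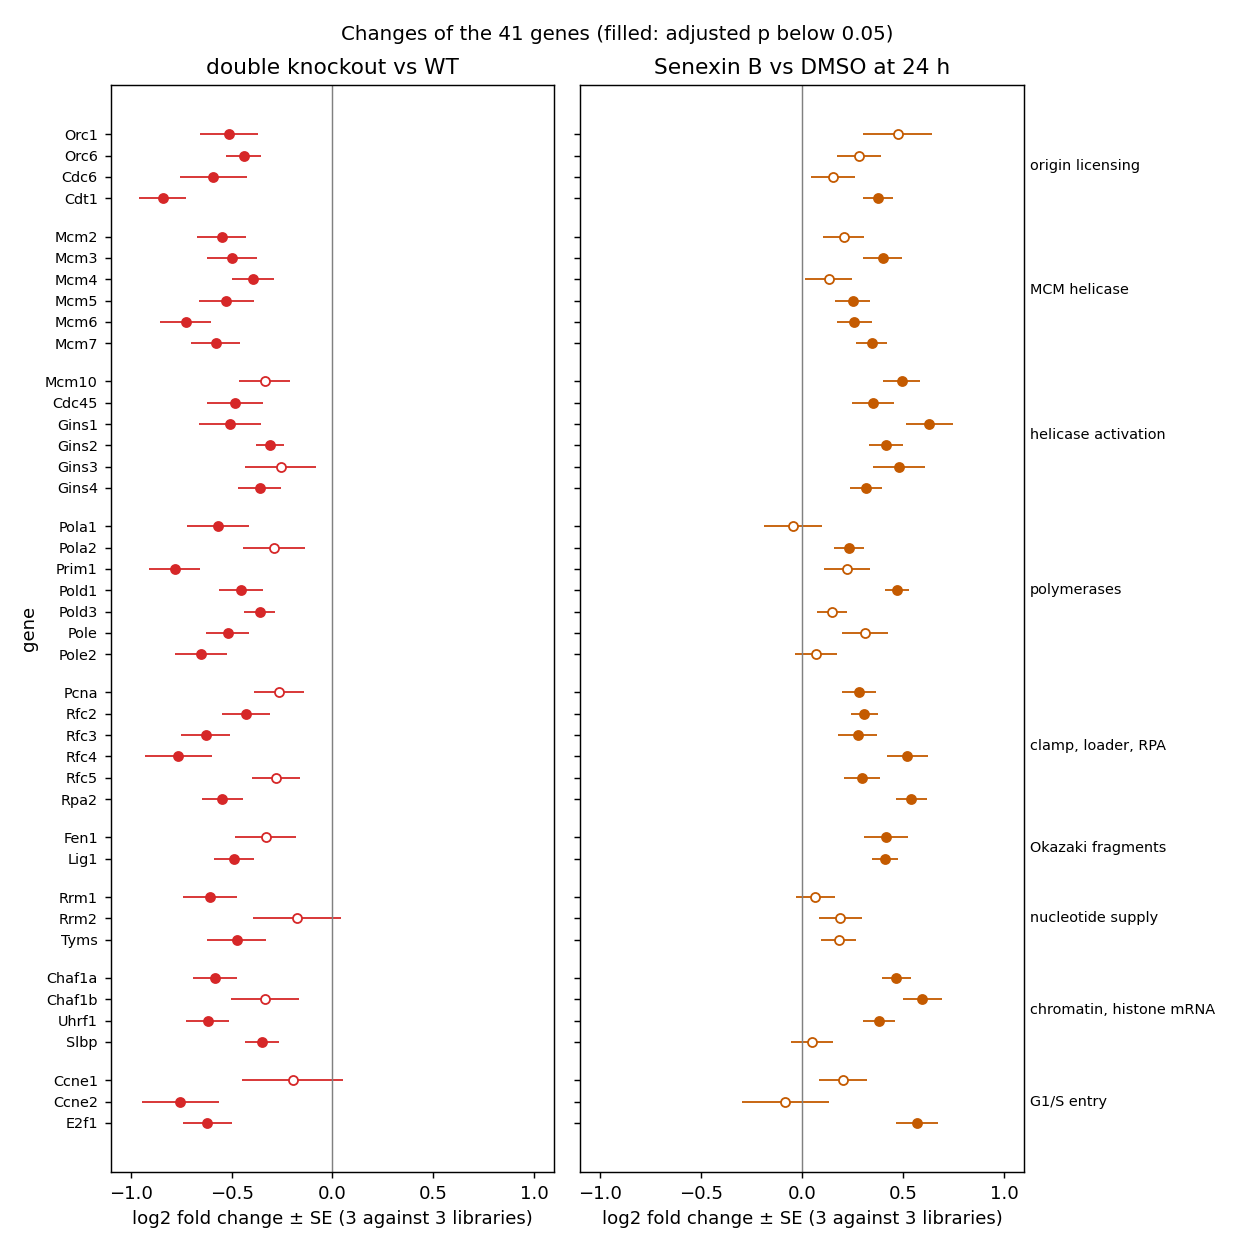
Log2 fold change with its SE for each of the 41 genes, by role, in the double knockout against WT (left) and Senexin B against DMSO at 24 h (right), 3 against 3 libraries, with filled points for an adjusted p below 0.05. All points on the left lie below 0, and 39 of 41 on the right lie above 0.

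All 4 licensing genes fell in the double knockout, and 1 rose with Senexin B at 24 h. Cdt1, which brings the MCM ring to origins, had 1142, 1221 and 1137 normalised counts in the double knockout, 1957, 1538 and 1460 in Cdk8-/-, 2044, 1926 and 1884 in Cdk19-/- and 2015, 1885 and 2371 in WT. The double knockout libraries were below all others, at a log2 fold change against WT of -0.84 ± 0.12 (SE, n = 3 against 3; edgeR adjusted p = 0.00111), the lowest adjusted p of the set. Cdt1 stood at 2466, 2925 and 2872 with Senexin B at 24 h against 1983, 2153 and 2234 in DMSO, without overlap, a change of 0.38 ± 0.08 (SE, n = 3 against 3; edgeR adjusted p = 0.00254). Orc6, the smallest subunit of the origin recognition complex, had 339.7, 362 and 343 counts in the double knockout and 475, 436 and 507 in WT, also without overlap (-0.44 ± 0.09 (SE, n = 3 against 3; edgeR adjusted p = 0.00547)). Orc1 fell by 0.51 and Cdc6 by 0.59 on the log2 scale, and with Senexin B their changes were 0.47 and 0.15, which did not pass the test. With the block Orc1 and Orc6 passed, at 0.49 and 0.28.

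The 6 subunits of the MCM helicase fell together, between -0.40 for Mcm4 and -0.73 for Mcm6. Mcm6, per kilobase the most abundant of the 41 genes in WT, had 2364, 2893 and 2433 counts in the double knockout and 4064, 4280 and 4381 in WT (-0.73 ± 0.13 (SE, n = 3 against 3; edgeR adjusted p = 0.00307)). In Cdk8-/- it had 4207, 3866 and 2975, with replicate 3 near the double knockout level. After 24 h of Senexin B, Mcm3, Mcm5, Mcm6 and Mcm7 rose, by 0.40, 0.25, 0.26 and 0.34. Mcm2 and Mcm4 did not pass the test there, at 0.21 and 0.13, and Mcm2 passed with the block (0.20).

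Of the 6 helicase activation genes 4 fell in the double knockout, and all rose with Senexin B at 24 h. In the double knockout Cdc45, Gins1, Gins2 and Gins4 fell, by 0.48, 0.51, 0.31 and 0.36 on the log2 scale, while Mcm10 (-0.34) and Gins3 (-0.26) did not pass the test. For Gins2 the unstranded column, which drops reads shared with Gse1, gave -0.65 (adjusted p = 0.00553). Gins1, a subunit of the GINS ring, had 351, 428 and 392 counts with Senexin B and 216, 267 and 274 with DMSO at 24 h, and 362, 378 and 365 and 289.6, 355 and 354 at 16 h. At 24 h the groups did not overlap (0.63 ± 0.12 (SE, n = 3 against 3; edgeR adjusted p = 0.00149)), and the DMSO level at 24 h was below that at 16 h (-0.40 ± 0.12 (SE, n = 3 against 3; edgeR adjusted p = 0.0408)). Mcm10, which helps to start the helicase, had 2160, 2591 and 2526 against 1557, 1885 and 1727 (0.49 ± 0.09 (SE, n = 3 against 3; edgeR adjusted p = 0.00157)). Gins2 had 1072, 1358 and 1332 against 899.6, 972 and 947 (0.42 ± 0.08 (SE, n = 3 against 3; edgeR adjusted p = 0.00274)). Gins4 was per kilobase the highest of the 6 in DMSO at 24 h, with 908, 1064 and 1027 counts against 757, 798 and 852 (0.32 ± 0.08 (SE, n = 3 against 3; edgeR adjusted p = 0.00964)).

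**Figure D3:**
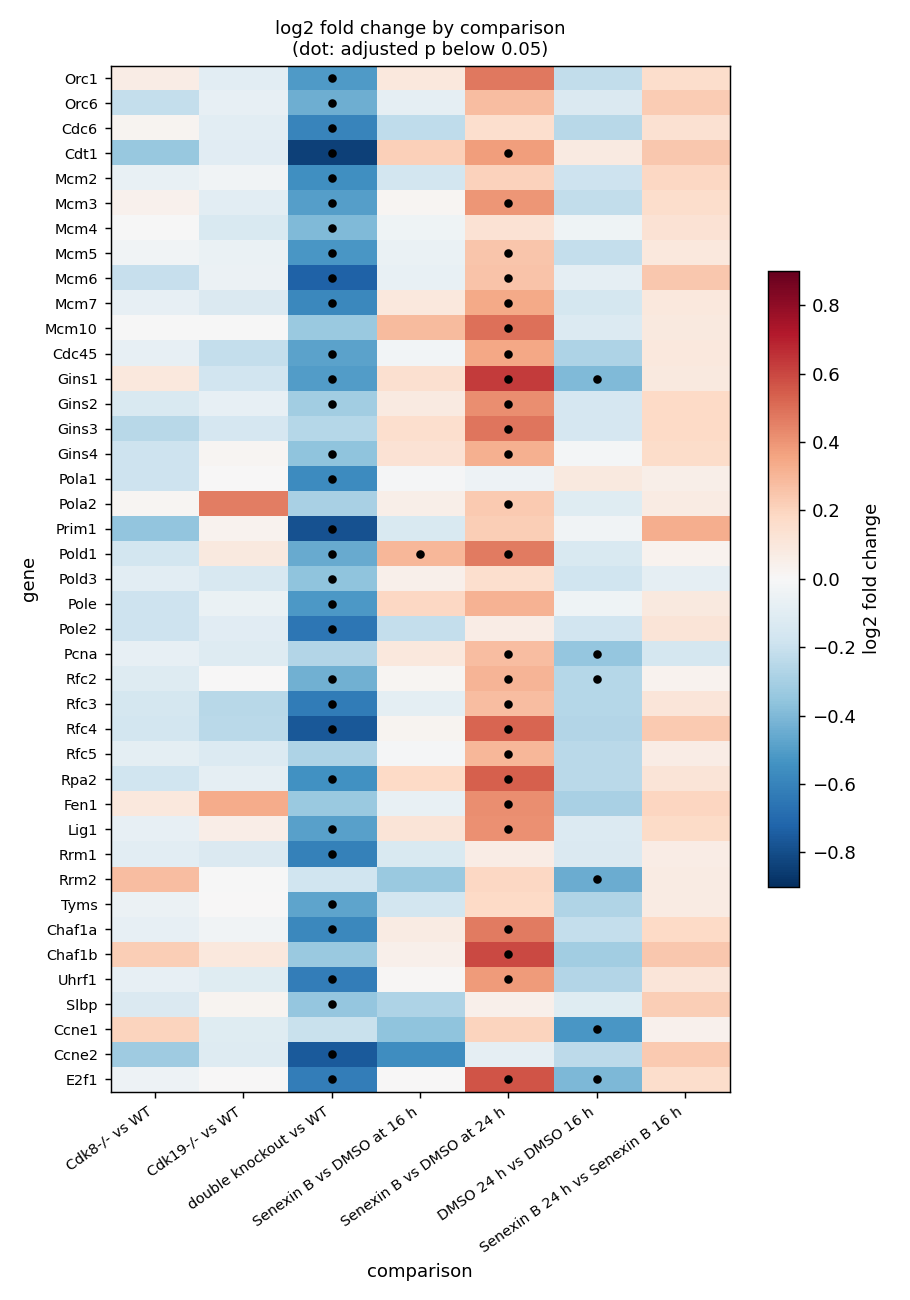
Log2 fold change (colour) of the 41 genes in rows for 7 comparisons in columns, with a dot where the adjusted p was below 0.05. There are 32 dots for the double knockout, 25 for Senexin B at 24 h, 6 for DMSO over time, 1 for Senexin B at 16 h and none in the remaining 3 columns.

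Of the 7 polymerase and primase genes 6 fell in the double knockout and 2 rose with Senexin B. Prim1, the catalytic subunit of primase, had 402, 534 and 481 counts in the double knockout and 796, 789 and 853 in WT (-0.78 ± 0.13 (SE, n = 3 against 3; edgeR adjusted p = 0.00201)). In Cdk8-/- it had 728, 653 and 528, all below WT, at -0.35 with an edgeR adjusted p of 0.125. Pole2, the second subunit of polymerase epsilon, had 142, 177 and 167 against 244, 267 and 253 (-0.65 ± 0.13 (SE, n = 3 against 3; edgeR adjusted p = 0.00605)). Pole, the catalytic subunit of that enzyme, had 864, 887 and 794 against 1154, 1211 and 1284 (-0.52 ± 0.11 (SE, n = 3 against 3; edgeR adjusted p = 0.00727)). Neither overlapped with WT. With Senexin B at 24 h Pold1 had 4080, 4091 and 4082 against 2906, 3060 and 2874 in DMSO, the lowest adjusted p of the set in that comparison (0.47 ± 0.06 (SE, n = 3 against 3; edgeR adjusted p = 0.000106)), and Pola2 rose by 0.23. Pold1 was the 1 gene called at both hours, and it fell in the double knockout, with 1029, 1186 and 1029 counts against 1532, 1423 and 1492 (-0.45 ± 0.11 (SE, n = 3 against 3; edgeR adjusted p = 0.0142)). Pola1, Prim1, Pold3, Pole and Pole2 did not pass the test with Senexin B, at -0.05 to 0.31, though Pole passed with the block.

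All 6 genes of the clamp, its loader and the single-strand binding protein rose with Senexin B at 24 h, and 4 fell in the double knockout. Rpa2, a subunit of the protein that coats single-stranded DNA, had 1702, 1962 and 1827 counts with Senexin B and 1161, 1311 and 1301 with DMSO (0.54 ± 0.08 (SE, n = 3 against 3; edgeR adjusted p = 0.000243)). In the double knockout it had 511, 599 and 523 against 789.5, 810.4 and 784 (-0.55 ± 0.10 (SE, n = 3 against 3; edgeR adjusted p = 0.00431)). Both pairs of groups were apart. Rfc4, a subunit of the clamp loader, had 952, 1222 and 1116 against 682, 813 and 798 with Senexin B (0.52 ± 0.10 (SE, n = 3 against 3; edgeR adjusted p = 0.00194)) and fell by 0.76 in the double knockout. Rfc3, of the same complex, had 544, 693 and 559 counts in the double knockout and 884, 898 and 997 in WT (-0.63 ± 0.12 (SE, n = 3 against 3; edgeR adjusted p = 0.00528)). Rfc2 had 1661, 1784 and 1692 in DMSO at 24 h and 2050, 1997 and 2102 at 16 h (-0.26 ± 0.07 (SE, n = 3 against 3; edgeR adjusted p = 0.0253)), against 2027, 2213 and 2117 with Senexin B at 24 h. The Senexin B libraries of 24 h lay within or above those of DMSO at 16 h.

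Pcna, the sliding clamp, had 1739, 1802 and 1353 counts in the double knockout and 1855, 1939 and 2089 in WT. The groups did not overlap, but the change of -0.27 ± 0.12 (SE, n = 3 against 3; edgeR adjusted p = 0.158) did not pass the test. In the Senexin B experiment it had 7335, 8694 and 8203 with Senexin B and 6110, 6966 and 6872 with DMSO at 24 h (0.28 ± 0.09 (SE, n = 3 against 3; edgeR adjusted p = 0.026)), and 8824, 8911 and 9315 and 7506, 8594 and 9273 at 16 h. Its decrease over time in DMSO was -0.35 ± 0.09 (SE, n = 3 against 3; edgeR adjusted p = 0.0208). The annotation also holds the pseudogenes Pcna-ps1 and Pcna-ps2, which can share reads with it.

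Lig1, the ligase that seals Okazaki fragments, moved in both experiments. It had 1681, 1770 and 1562 counts in the double knockout and 2293, 2343 and 2385 in WT (-0.49 ± 0.10 (SE, n = 3 against 3; edgeR adjusted p = 0.00683)), and 5299, 5885 and 5723 with Senexin B against 3922, 4412 and 4397 with DMSO (0.41 ± 0.06 (SE, n = 3 against 3; edgeR adjusted p = 0.000508)). Its groups were apart in both. Fen1 did not pass the test in the double knockout (-0.33) and rose by 0.42 with Senexin B.

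Of the nucleotide supply genes Rrm1 and Tyms fell in the double knockout, and none of the 3 rose with Senexin B at 24 h without the block. Rrm2, the regulatory subunit of ribonucleotide reductase, had 897, 870.5 and 543 counts in the double knockout, 1189, 1278 and 694 in Cdk8-/- and 805, 829 and 977 in WT, groups that overlapped (-0.18 ± 0.22 (SE, n = 3 against 3; edgeR adjusted p = 0.618)). Replicate 3 was the lowest library of both mutant groups. In the Senexin B experiment it had 1870, 2325 and 2363 and 1466, 1644 and 1708 in DMSO at 16 and 24 h, a decrease of -0.44 ± 0.11 (SE, n = 3 against 3; edgeR adjusted p = 0.0189). With Senexin B it had 1716, 1743 and 1756 and 1535, 2002 and 1953, below DMSO at 16 h and overlapping with it at 24 h. Rrm1, its catalytic partner, fell by 0.61 and Tyms, the thymidylate synthase, by 0.48 in the double knockout. At 24 h with Senexin B the 3 genes changed by 0.07 to 0.19, none past the threshold, and with the block Rrm2 was called higher, at 0.18 (edgeR adjusted p = 0.0491).

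Chaf1a and Uhrf1 were among the 12 lowest adjusted p of both comparisons. Chaf1a, the large subunit of the assembly factor that places histones behind the fork, had 689.6, 635 and 595 counts in the double knockout and 910.2, 994 and 969 in WT (-0.58 ± 0.11 (SE, n = 3 against 3; edgeR adjusted p = 0.00424)). In the unstranded column, without reads shared with Ubxn6, its change was -0.55 (adjusted p = 0.0094). With Senexin B it had 2554, 2866 and 2888 against 1832, 2056 and 2121 (0.47 ± 0.07 (SE, n = 3 against 3; edgeR adjusted p = 0.000414)). Uhrf1, which recruits the maintenance DNA methyltransferase to new strands, had 1084, 988 and 878 against 1440, 1439 and 1651 in the double knockout (-0.62 ± 0.11 (SE, n = 3 against 3; edgeR adjusted p = 0.00273)). With Senexin B it had 5379, 6336 and 6036 against 4059, 4832 and 4752 (0.38 ± 0.08 (SE, n = 3 against 3; edgeR adjusted p = 0.00345)). The groups were apart in all 4 cases.

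Chaf1b, the partner of Chaf1a, rose with Senexin B, to 1207, 1540 and 1454 counts against 831, 946 and 1003 (0.60 ± 0.10 (SE, n = 3 against 3; edgeR adjusted p = 0.000689)). In the double knockout it had 551, 596 and 528 against 784, 826 and 502 in WT, where replicate 3 was the lowest of all 6 libraries, and the change of -0.34 did not pass the test. Slbp, which binds the stem-loop of histone mRNAs, had 877, 906 and 871 in the double knockout and 1170, 1089 and 1125 in WT (-0.35 ± 0.08 (SE, n = 3 against 3; edgeR adjusted p = 0.0157)). In the Senexin B experiment it had 1635, 1748 and 1598 with Senexin B and 1825, 1968 and 2245 with DMSO at 16 h (-0.28), and 1612, 2100 and 2092 and 1707, 2010 and 1893 at 24 h (0.05). Neither difference passed the test without the block.

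E2f1, the transcription factor of G1/S entry, had 269, 298 and 228 counts in the double knockout, 406, 444 and 338 in Cdk8-/-, 406, 417 and 401 in Cdk19-/- and 403, 390.3 and 430.1 in WT. The double knockout was below the other 3 groups without overlap (-0.62 ± 0.12 (SE, n = 3 against 3; edgeR adjusted p = 0.00564) against WT). At 24 h it had 778, 799 and 920.0 with Senexin B and 489.5, 580.1 and 614 with DMSO (0.57 ± 0.10 (SE, n = 3 against 3; edgeR adjusted p = 0.00131)), and at 16 h 790.5, 724 and 721 and 679, 722 and 827. In DMSO E2f1 fell over time (-0.40 ± 0.10 (SE, n = 3 against 3; edgeR adjusted p = 0.0238)), while the Senexin B libraries of 24 h lay within or above those of DMSO at 16 h.

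The 2 E-type cyclins activate CDK2 at S-phase entry, and neither rose with Senexin B. Ccne1 had 212, 249 and 113 counts in the double knockout and 226, 215 and 217 in WT. Replicate 2 of the double knockout lay above all WT libraries and replicates 1 and 3 below them (-0.20 ± 0.25 (SE, n = 3 against 3; edgeR adjusted p = 0.628)). In DMSO it had 436, 456 and 501 at 16 h and 300.5, 329.5 and 337 at 24 h, the largest decrease of the set over time (-0.53 ± 0.12 (SE, n = 3 against 3; edgeR adjusted p = 0.0138)). With Senexin B at 24 h it had 301, 432 and 379.8, which overlapped with DMSO (0.20). Ccne2 fell in the double knockout (181, 162 and 152 counts against 256, 282 and 295), where reads from the opposite strand are counted too. In the other experiment it had 124, 201 and 219 with Senexin B and 150.2, 207 and 220.1 with DMSO at 24 h. These overlapped, and the change of -0.08 did not pass the test.

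**Figure D4:**
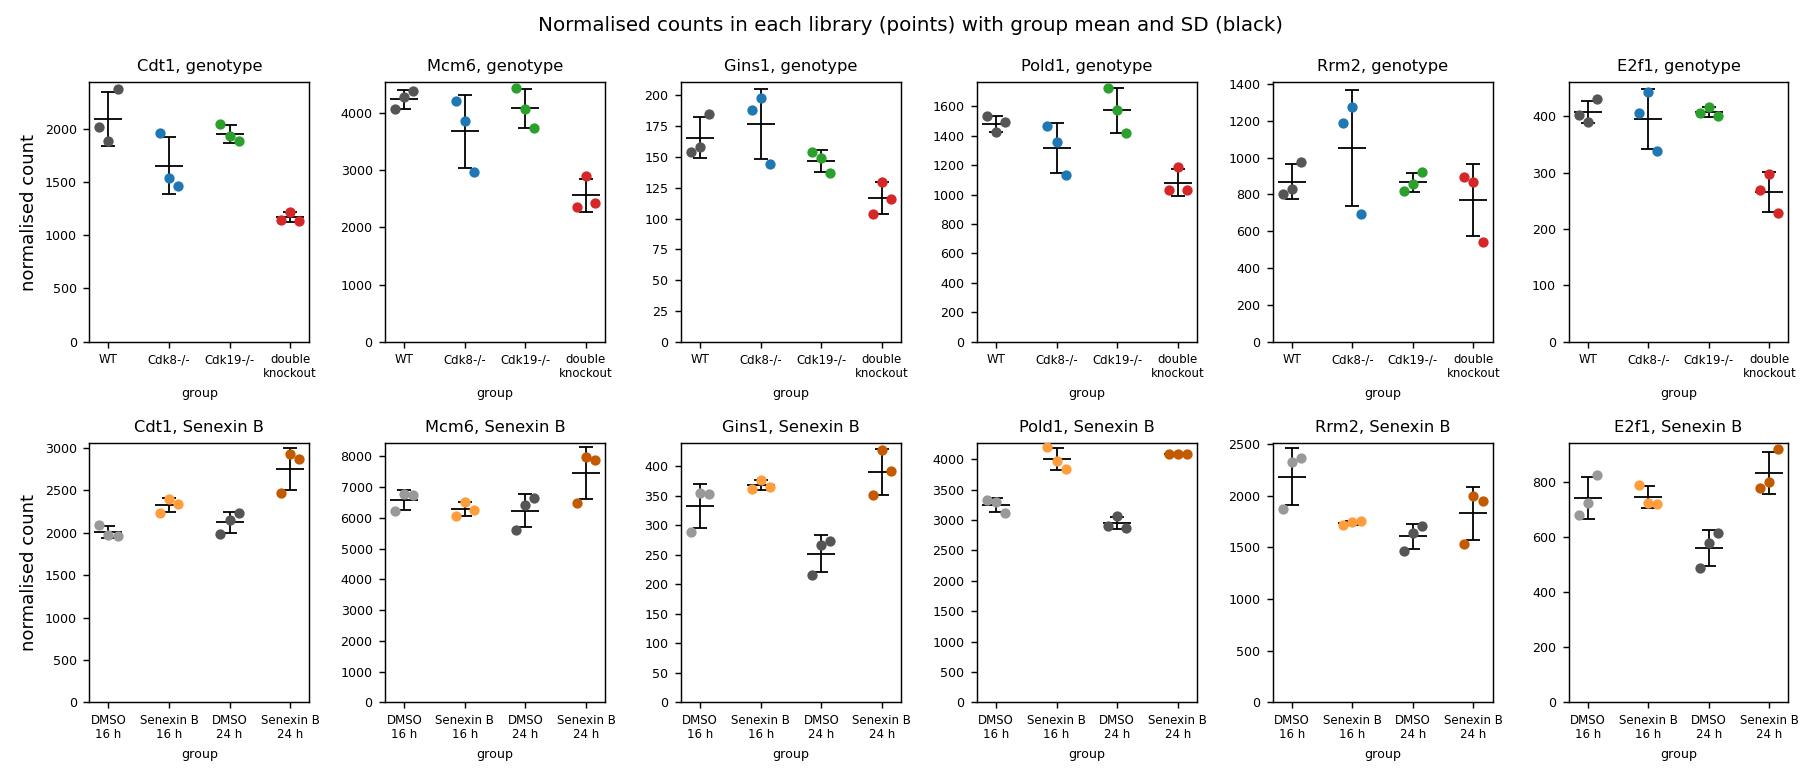
Normalised counts of 6 genes in each library (points, replicates 1 to 3 from left to right), with the mean and SD of each group in black, for the genotype experiment (top) and the Senexin B experiment (bottom), each axis starting at 0. Cdt1, Mcm6, Gins1, Pold1 and E2f1 have their lowest group mean in the double knockout and a higher mean with Senexin B than with DMSO at 24 h, while Rrm2 of the double knockout overlaps with WT.

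The 2 experiments share no library, so their lists can be set side by side. Of the 32 genes lower in the double knockout, 18 (56.3%) were higher with Senexin B at 24 h, which is 72.0% of the 25. This share was no larger than that of the whole set, 25 of 41, and 7 genes not called in the double knockout also rose. No gene was called lower in both, as none of the 41 was called lower with Senexin B. Over all 14261 genes tested in both experiments, 310 of the 1182 called lower in the double knockout (26.2%) were higher with Senexin B at 24 h, 14.1% of the 2207 called higher, and 113 (9.56%) were lower in both. The 18 genes were Cdt1, Mcm3, Mcm5, Mcm6, Mcm7, Cdc45, Gins1, Gins2, Gins4, Pold1, Rfc2, Rfc3, Rfc4, Rpa2, Lig1, Chaf1a, Uhrf1 and E2f1. The 14 that fell without a call under Senexin B included 3 of 4 licensing genes (Orc1, Orc6 and Cdc6), 5 of 7 polymerase genes (Pola1, Prim1, Pold3, Pole and Pole2), and Rrm1, Tyms, Slbp and Ccne2. Of the 14, Orc1, Orc6, Mcm2 and Pole passed the test with Senexin B in the fit with the block. Rrm2 and Ccne1 were called in neither without it. Across the 41 genes the size of one change did not follow the other (Pearson's r = 0.08, Spearman's rho = 0.07, a description over genes that share their libraries). Genes with an E2F word in the window had a median log2 fold change of -0.57 in the double knockout (14 of 15 called) and those without one -0.44 (11 of 19 called). The medians with Senexin B at 24 h were 0.34 (10 of 15 called) and 0.28 (11 of 19 called), and no test was made of these differences.

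The rest of the replication and cell cycle machinery gave the context of the 41 genes. Over all genes tested, 7.90% were called lower and 9.41% higher in the double knockout. With Senexin B at 24 h, 14.8% were called higher and 12.7% lower. Of 35 other replication genes 17 fell in the double knockout and none rose (median -0.39), led by Timeless (-0.78 ± 0.09), Atad5 (-0.74 ± 0.18), Clspn (-0.70 ± 0.11) and Wdhd1 (-0.68 ± 0.09). Timeless and Clspn protect and signal from the fork. Of 22 other S-phase genes 14 fell (median -0.50), among them the uracil glycosylase Ung (-0.89 ± 0.14). With Senexin B at 24 h, 8 of the 35 rose and 2 fell, with Chtf18 of an alternative clamp loader at 0.67 ± 0.07 and the helicase Recql4 at 0.56 ± 0.09, and 10 of the 22 rose, with Ung at 0.43 ± 0.10.

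Genes of G2 and mitosis were also called, to be read against the same shares over all genes. In the double knockout 8 of 20 fell and none rose, with all 20 below 0 and a median of -0.39, among them Nusap1 (-0.56 ± 0.13) and Cdk1 (-0.54 ± 0.14). With Senexin B at 24 h, 8 of 20 rose and none fell, among them Ube2c (0.47 ± 0.09) and Aurka (0.44 ± 0.09). Of 27 regulators of G1/S entry, 6 fell and 3 rose in the double knockout, with the CDK inhibitor Cdkn2b at 0.75 ± 0.18 and its relative Cdkn2c at -0.74 ± 0.12. With Senexin B 8 of 26 rose and 2 fell, with the G1 cyclin Ccnd1 at 0.72 ± 0.08 and Rbl2, a relative of the retinoblastoma protein, at -0.39 ± 0.09. All of these are log2 fold changes with SE that passed the test over all genes.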

How the data were processed

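Per the labels and the study's methods, polyadenylated RNA was prepared with an oligo(dT) kit and single-end reads were aligned to GRCm38.p6 with STAR and counted on Ensembl release 93 genes. The submitters' processing notes name STAR 2.6.0c, and the study's methods name a different version. The Senexin B samples are also described as rRNA-depleted total RNA. The deposited tables hold raw counts per gene by the authors, not normalised, once without regard to strand and once per strand. Counts of the second strand were used (41879958 to 42068649 reads in all per genotype library, of which 63.1 to 65.2% were not counted there, and 36042777 to 36255610 with 21.5 to 25.1% in the Senexin B experiment).

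Each experiment was fitted with edgeR 4.0.16 (R 4.3.3) over its 12 libraries: filterByExpr, TMM, quasi-likelihood F-test, Benjamini-Hochberg adjustment over all genes tested, and a gene was called at an adjusted p below 0.05. SE is the absolute log2 fold change over the square root of F. Tested on simulated data for the genotype experiment (15403 genes), the fit recovered 59 of 100 genes changed 2-fold and 24 of 100 changed 1.5-fold, and for the Senexin B experiment (15290 genes) 79 and 52. A change of the size seen here can thus be missed. False calls in the simulated genotype and Senexin B data were 6 and 14 by edgeR, and 23 and 29 by DESeq2. Annotation was GENCODE vM21 (54079 of 54146 genes matched).

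The 41 genes and the gene lists were chosen with earlier results of these data known, and no p adjusted over a list alone is given. Counts per library are given for genes called in a comparison (up to the 12 lowest adjusted p), the gene of highest level per kilobase in each role, and Ccne1, Ccne2, E2f1, Pcna and Slbp; other genes come from the lists by size of change. Alternatives were DESeq2 1.42.0, its size factors, other count filters, the unstranded column, fewer groups in the fit, a replicate block and leaving out libraries. Replicate numbers were taken to pair libraries where the deviations of same-numbered libraries from their group means correlated above 0.1 in every pair. This held for Senexin B against DMSO at 16 h (0.30, 0.10 and 0.11) and at 24 h (0.38, 0.14 and 0.19) and for Senexin B over time (0.33, 0.14 and 0.12), and for no genotype comparison. No pair of libraries looked like 1 library deposited in duplicate. Protein sequences were not used here.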

Additional observations from a re-analysis of the deposited data

How the results depend on the processing

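No gene called in a comparison of the report changed sign in it under any alternative. At 16 h of Senexin B, where 1 gene was called higher, lower calls outnumbered higher ones with the block (5 and 3) and without DMSO replicate 1 (3 and 1). With the other scaling (DESeq2 size factors) the counts of genes called stayed within 1.5 times. The unstranded column gave 30 for the double knockout against WT (8.38% of all genes were lower). For the double knockout against WT the count of 32 ranged from 21 to 27 when 1 library was left out, with medians from -0.55 to -0.44, and for Senexin B at 24 h the count of 25 ranged from 15 to 31, with medians from 0.24 to 0.37. DESeq2 called 18 genes for the double knockout against Cdk8-/-, 3 for the departure from additivity, 3 for Senexin B at 16 h (2 higher and 1 lower, against 5.45% and 4.27% of all genes), 11 lower for DMSO over time (8.49%) and 1 higher for Senexin B over time. Without a filter on counts these were 13 (0.584% of all genes), 2 (0.601%), 4 (2 higher and 2 lower, 2.79% and 2.19%), 10 (3.66%) and 1 (1.62%), and 3 (0.141%) for the difference between the Senexin B effects. Leaving out both libraries with Cdk19 at the WT level gave 1 gene for Cdk19-/- and 1 for the departure from additivity, and a fit of the DMSO groups alone gave 1 for DMSO over time (1.45% of all genes were lower). The cause was not tested. With 1 library left out the ranges were 0 to 1 for each single knockout, 0 to 25 for the double knockout against Cdk8-/- (medians -0.57 to -0.34), 0 to 6 for the departure from additivity, 1 to 4 for Senexin B at 16 h, 0 to 13 for DMSO over time and 0 to 4 for Senexin B over time.

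The replicate block gave 8 genes for Senexin B at 16 h, 30 at 24 h, 3 for the difference of these effects, 4 for Senexin B over time, 20 for DMSO over time and 31 for the double knockout against WT; it changed no other count of calls. In the genotype experiment and for DMSO over time the libraries share only a number: same-numbered libraries correlated at -0.19 to 0.22 and at -0.05 to 0.37, and in no comparison, those of Senexin B included, did every library correlate best with its own number.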

Other observations

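Protein-coding histone genes with symbols that start with Hist1h, Hist2h, Hist3h or Hist4h did not follow the 41 genes under Senexin B. Such genes are commonly classed as replication-dependent, with transcripts made in S phase and mostly without a poly(A) tail. The class was set here by symbol alone, and whether the genes tested were transcribed in S phase was not examined. The 67 genes of this class summed to 59.5 to 76.96 CPM in DMSO at 24 h and to 35.3 to 43.8 with Senexin B, and at 16 h to 51.3 to 75.0 and 35.6 to 42.6. At 24 h 13 of them could be tested, 12 were below 0, and 3 fell: Hist1h2bg (-1.49 ± 0.34), Hist2h2be (-1.06 ± 0.13) and Hist1h1c (-0.98 ± 0.17), as log2 fold changes with SE by edgeR. Of all genes 12.7% were called lower there. In the double knockout, where the 41 genes were low, the histone genes summed to 86.3 to 106 CPM against 77.5 to 100.2 in WT, and of 9 tested Hist2h2be fell (edgeR adjusted p = 0.00538) and Hist1h2bc rose (0.58 ± 0.14). Over all genes 7.90% were called lower and 9.41% higher. The labels name an oligo(dT) kit, which captures such transcripts poorly, but also describe the Senexin B samples as rRNA-depleted total RNA, which keeps them. How far these sums reflect the amount of histone mRNA in the cells is thus not known.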
